A study of Rattus norvegicus with 6 samples.

Results

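The genes described here are 6 muscle genes grouped under the label stretch and Z-disc stress, Ankrd1, Csrp3, Mustn1, Ky, Mss51 and Nmrk2. They are among 10411 genes named on the array. Not all encode Z-disc proteins, since Mss51 encodes a mitochondrial protein and Nmrk2 a kinase that makes a precursor of NAD. The 6 genes were chosen by name, several of them for their large changes between the same diabetic and normal muscles. Their differences are therefore given as a description with no test. Every probe set annotated to exactly 1 of them was used, which gave 8 probe sets: 2 each for Ankrd1 and Ky and 1 for each of the other 4 genes. Costal diaphragm came from male Wistar rats, 3 normal rats given the citrate buffer vehicle and 3 diabetic rats given 60 mg/kg of streptozotocin, which destroys insulin-producing beta cells, by the same intraperitoneal route. Injection was at 8 weeks of age, and the left side of the muscle was taken 4 weeks later after an overnight fast, with no insulin or oral glucose-lowering drug in either group. RNA of each rat was hybridized to its own Affymetrix RAE 230A array, and each value is an MAS 5.0 signal, an intensity on a linear scale.

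The Z-disc anchors the thin filaments and the ends of titin at each border of the sarcomere, and it also serves as a sensor of load in striated muscle. Several proteins that sit there or along titin move to the nucleus when a fibre is stretched or overloaded, and some of their genes are themselves switched on by load. The costal diaphragm is lengthened and shortened with every breath, so its fibres carry cyclic load throughout life.

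The gene starts are shown first, as 250 bases upstream of the RefSeq start in the GRCr8 assembly on the + strand, because 1 gene of these 4 was higher and 3 were lower on the diabetic arrays. Entries were matched for 4 of the 6 genes, and Ankrd1 and Csrp3 were not matched. Capitals mark E-boxes, CANNTG, the motif of the MyoD family of muscle factors. The windows are chr16:6079105-6079354 for Mustn1, chr8:111965612-111965861 for Ky, chr15:3856494-3856743 for Mss51 and chr7:9165317-9165566 for Nmrk2.
Mustn1: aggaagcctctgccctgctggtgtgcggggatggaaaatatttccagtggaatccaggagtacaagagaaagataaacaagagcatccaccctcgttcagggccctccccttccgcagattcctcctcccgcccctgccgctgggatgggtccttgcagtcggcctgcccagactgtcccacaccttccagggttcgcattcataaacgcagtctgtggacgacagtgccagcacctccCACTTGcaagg
Ky: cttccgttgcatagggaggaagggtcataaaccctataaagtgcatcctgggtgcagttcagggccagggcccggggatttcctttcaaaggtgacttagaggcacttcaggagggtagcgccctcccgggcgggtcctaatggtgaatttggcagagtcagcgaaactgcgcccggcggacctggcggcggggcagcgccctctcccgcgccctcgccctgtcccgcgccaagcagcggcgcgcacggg
Mss51: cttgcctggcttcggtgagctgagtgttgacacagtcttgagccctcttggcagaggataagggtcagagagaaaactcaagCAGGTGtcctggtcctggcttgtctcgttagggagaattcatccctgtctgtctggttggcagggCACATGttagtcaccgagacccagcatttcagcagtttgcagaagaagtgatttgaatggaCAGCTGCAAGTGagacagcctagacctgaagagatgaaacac
Nmrk2: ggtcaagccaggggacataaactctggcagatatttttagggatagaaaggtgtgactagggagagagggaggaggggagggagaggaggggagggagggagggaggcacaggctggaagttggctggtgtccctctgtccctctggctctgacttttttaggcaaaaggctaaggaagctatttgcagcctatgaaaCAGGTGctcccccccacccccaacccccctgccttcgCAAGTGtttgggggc

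The Mss51 window held 4 E-boxes, whose first bases lie at -168, -103, -42 and -36 when the base before the start is -1. Nmrk2 held E-boxes at -52 and -15 and Mustn1 held 1 at -11, while the Ky window held none. Such a match is common, since 65.5% of 33469 rat promoter windows of the same length held an E-box on either strand. The TEAD motif CATTCC, the AP-1 motif TGANTCA, the MEF2 motif and the CArG box were also searched on both strands. None of these letters occurred in the 4 windows, and over all promoters the shares with a match were 12.1%, 6.34%, 2.96% and 1.5% in that order. GC content was 65.2% for Ky, 58.4% for Mustn1, 57.2% for Nmrk2 and 51.2% for Mss51, against a median of 51.2% over all promoters.

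Median signals were similar on the 6 arrays, from 167.1 to 180.5. Diabetic replicate 3 stood apart in its spiked bacterial control transcripts, which were at 1.99 times their geometric mean over all arrays, while the other 5 lay at 0.842 to 0.889, so the ratio of each of the 6 genes is also given without that array. The 3′/5′ signal ratio of β-actin was 1.17 to 2.27 and that of GAPDH 1.27 to 4.02. Skeletal muscle markers were bright on all arrays. Of 8 heart markers, 3 passed the filter on mean signal (105.8), while Myh6, Nppa, Nppb, Myl7 and Tnnt2 lay below it. Of 6 liver markers, 1 passed the filter, while Alb, Apoa1, Ttr, Serpina1 and Fgb lay below it. Probe sets differ in brightness for reasons of design, so signals are not compared between genes. In a whole muscle, fewer cells of a type and less RNA per cell cannot be told apart.

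All 8 probe sets passed the filter on mean signal, and in each of them the groups did not overlap. The 2 of Ankrd1 passed only through their diabetic signals, since their normal means of 96.5 and 79.2 lay under the filter level. Ankrd1, Csrp3 and Mustn1 were higher on every diabetic array than on any normal array, an order shown by 15.9% of the 7080 named genes tested. Ky, Mss51 and Nmrk2 were lower on every diabetic array, as were 14.9% of those genes. The limma test over all probe sets called 3.46% of the named genes higher and 3.55% lower. No call is given for the 6 genes, because they were selected on this contrast, and these shares stand as background only.

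**Figure D1:**
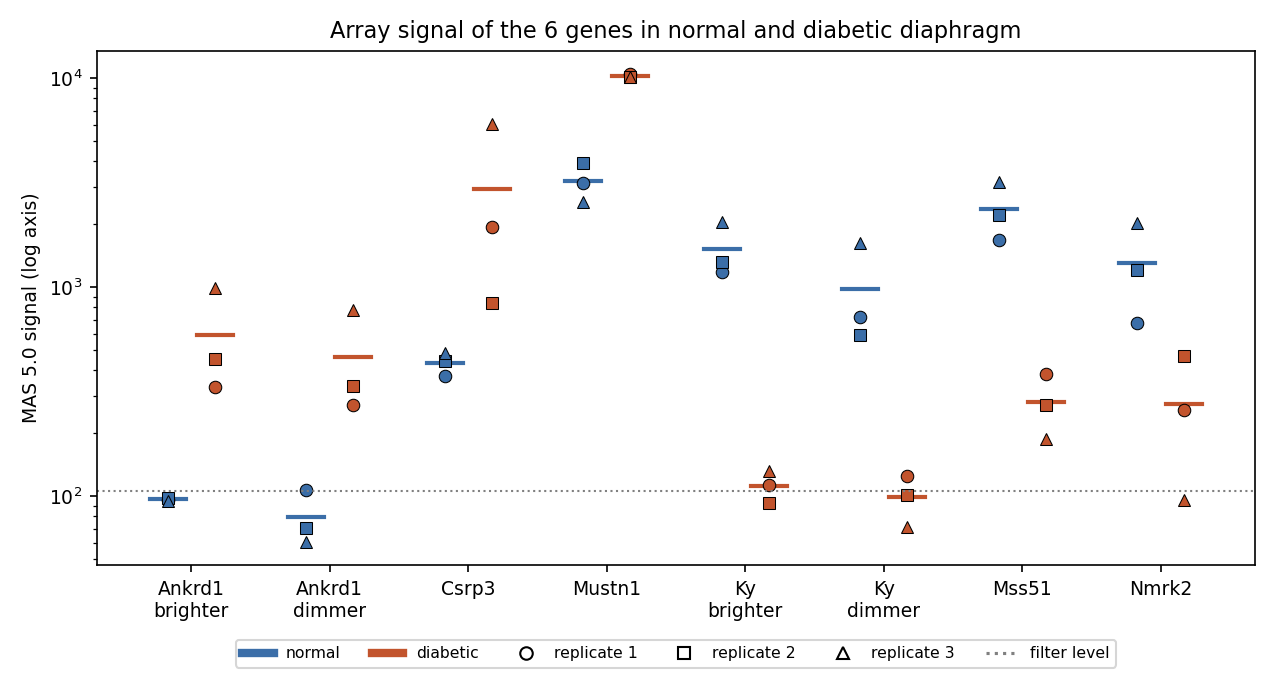
MAS 5.0 signal (log axis) of each of the 8 probe sets on the 3 normal (blue) and 3 diabetic (orange) arrays, with the symbol giving the replicate number, the short line the group mean of linear signals and the dotted line the filter level of 105.8. No probe set overlaps between groups, the diabetic Mustn1 points coincide, and the diabetic points of Csrp3 and Nmrk2 are spread most widely.

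Ankrd1 encodes a muscle ankyrin repeat protein that binds the spring region of titin and also acts as a cofactor in the nucleus. Its brighter probe set, 1367664_at, read 96.4, 98.0 and 95.2 on the normal arrays and 333.3, 454.6 and 993.3 on the diabetic arrays. The normal signals were almost equal to each other, and the lowest diabetic signal was 3.40 times the highest normal one. The group means were 96.5 ± 1.40 (SD, n = 3) and 594 ± 351 (SD, n = 3), a 6.15-fold higher mean in diabetic diaphragm that was 4.08-fold without diabetic replicate 3. The normal mean lay under the filter level, where part of a signal can be background, so the ratio is imprecise. The dimmer probe set, 1367665_at, read 106.6, 70.7 and 60.4 in normal and 274.2, 335.2 and 781.8 in diabetic muscle, a 5.85-fold higher mean that was 3.85-fold without diabetic replicate 3. Both probe sets thus gave the same direction and the same order of the diabetic arrays.

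Csrp3 encodes muscle LIM protein, a Z-disc protein that binds actinin and telethonin and can enter the nucleus. Its probe set, 1398243_at, read 377.6, 444.7 and 482.8 on the normal arrays and 1942.7, 838.8 and 6050.8 on the diabetic arrays. Every diabetic muscle was above the normal range, but the 3 diabetic values themselves differed 7.21-fold from lowest to highest, a wider spread than that of 99.9% of genes tested. The means were 435 ± 53.3 (SD, n = 3) and 2944 ± 2747 (SD, n = 3), a 6.77-fold higher mean in diabetic diaphragm. Without diabetic replicate 3 the ratio was 3.20-fold, and the lowest diabetic signal was 1.74 times the highest normal one.

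Mustn1 encodes a small nuclear protein of developing and regenerating muscle and skeleton. Its probe set, 1373032_at, read 3164.2, 3913.2 and 2564.7 on the normal arrays and 10452.2, 10075.3 and 10119.9 on the diabetic arrays. The diabetic signals differed only 1.04-fold from lowest to highest, a narrower spread than that of all but 1.34% of genes. The means were 3214 ± 676 (SD, n = 3) and 10216 ± 206 (SD, n = 3), a 3.18-fold higher mean in diabetic diaphragm and 3.19-fold without diabetic replicate 3. With 1 array left out at a time the ratio ran from 2.89-fold to 3.57-fold, the narrowest range of the 3 higher genes. It was the smallest of their 3 ratios with all arrays, but without diabetic replicate 3 it stood beside 3.20-fold for Csrp3.

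Ky encodes the kyphoscoliosis peptidase, a Z-disc protein that binds filamin C and whose loss in the mouse leads to weak postural muscle and a curved spine. Its brighter probe set, 1389694_at, read 1181.0, 1319.7 and 2056.5 on the normal arrays and 112.6, 92.5 and 131.6 on the diabetic arrays. All 3 diabetic signals lay near the filter level, and the lowest normal signal was 8.97 times the highest diabetic one. The means were 1519 ± 471 (SD, n = 3) and 112 ± 19.6 (SD, n = 3), 13.5-fold lower in diabetic diaphragm and 14.8-fold lower without diabetic replicate 3. Without normal replicate 3 the diabetic mean was 11.1-fold lower. The dimmer probe set, 1375445_at, read 721.9, 592.3 and 1634.1 in normal and 124.4, 101.4 and 71.4 in diabetic muscle, a 9.92-fold lower mean that was 8.70-fold lower without diabetic replicate 3. The order of the diabetic arrays differed between the 2 probe sets, and the size of both ratios is imprecise with the diabetic signal so low.

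Mss51 encodes a mitochondrial protein of skeletal muscle whose level responds to myostatin. Its probe set, 1389436_at, read 1677.0, 2225.4 and 3196.2 on the normal arrays and 383.5, 271.8 and 188.5 on the diabetic arrays. Each group was spread about equally on a ratio scale, with highest over lowest signals of 1.91 in normal and 2.03 in diabetic muscle. The means were 2366 ± 769 (SD, n = 3) and 281 ± 97.8 (SD, n = 3), 8.41-fold lower in diabetic diaphragm and 7.22-fold lower without diabetic replicate 3. Without normal replicate 3 the diabetic mean was 6.94-fold lower.

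Nmrk2 encodes the muscle nicotinamide riboside kinase, which makes a precursor of NAD and was also described as a binding partner of integrin β1. Its probe set, 1378423_at, read 671.8, 1211.4 and 2020.3 on the normal arrays and 259.1, 470.4 and 96.4 on the diabetic arrays. Both groups were widely spread, 3.01-fold among normal and 4.88-fold among diabetic muscles, and the lowest normal signal was only 1.43 times the highest diabetic one. The means were 1301 ± 679 (SD, n = 3) and 275 ± 188 (SD, n = 3), 4.73-fold lower in diabetic diaphragm. The diabetic mean was 3.57-fold lower without diabetic replicate 3 but 7.32-fold lower without diabetic replicate 2, the array nearest to the normal range. The smallest ratio with 1 array left out was 3.42-fold, without normal replicate 3.

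**Figure D2:**
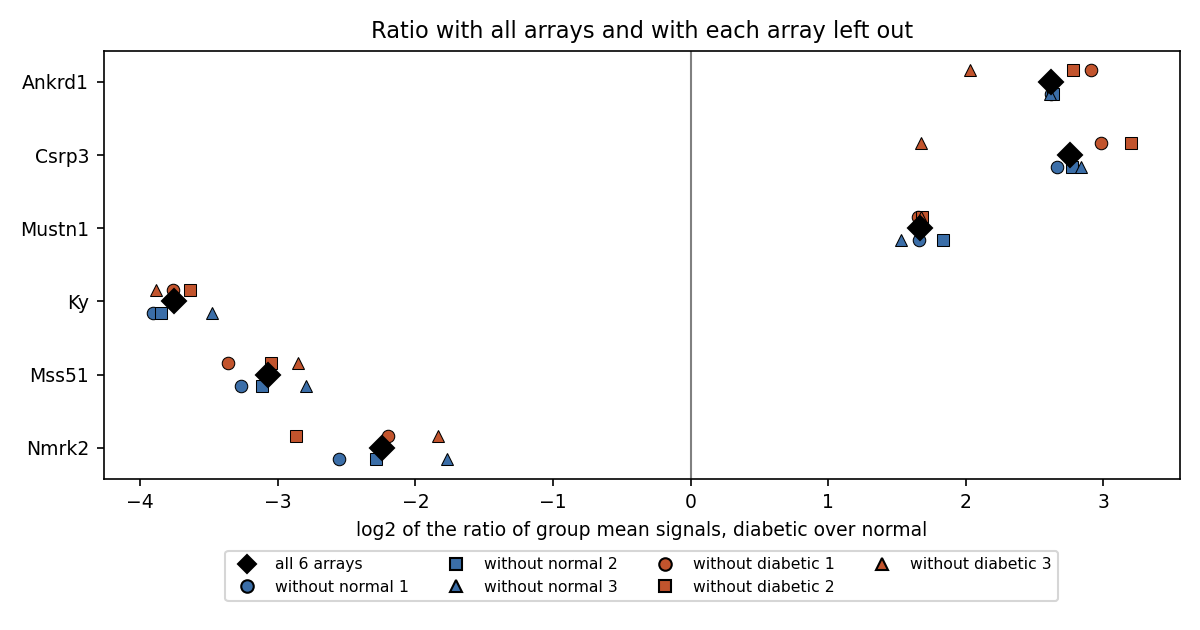
Log2 of the ratio of group mean signals, diabetic over normal, for the representative probe set of each gene from all 6 arrays (black diamonds) and after removal of 1 array at a time (blue for a normal and orange for a diabetic array). No point crosses 0, and without diabetic replicate 3 Ankrd1 moved from 2.62 to 2.03 and Csrp3 from 2.76 to 1.68.

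The spread among arrays of a group differed strongly between genes of the same direction. Over the 7080 genes the median of highest over lowest signal was 1.31 in normal and 1.31 in diabetic muscle. Among the higher genes this ratio in diabetic muscle was 1.04 for Mustn1, 2.98 for Ankrd1 and 7.21 for Csrp3. Among the lower genes it was 1.42 for Ky, 2.03 for Mss51 and 4.88 for Nmrk2. In normal muscle it ran from 1.03 for Ankrd1, whose normal signals lay under the filter level, to 3.01 for Nmrk2. The dimmer probe set of Ankrd1 gave 1.76 in normal muscle. That of Ky gave 1.74 in diabetic and 2.76 in normal muscle, so the spread also differed between probe sets of a gene. With 1 array per rat, differences between rats and measurement noise cannot be told apart.

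Diabetic replicate 3 was the diabetic array farthest from the normal mean for Ankrd1, Csrp3, Mss51 and Nmrk2, 4 of the 6 genes. It was also farthest for 41.7% of all genes tested, and its spike-in level was the one that stood apart. Ky was farthest on diabetic replicate 2 and Mustn1 on diabetic replicate 1. On the normal side, replicate 3 was farthest from the diabetic mean for all of the 6 genes but Csrp3, and for 45.3% of the genes tested. Whether array quality had a part in these positions was not tested.

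Similarity of pattern was measured as the root mean square difference of log2 signals over the 6 arrays, after each gene was centred on its own mean. Both groups enter this value, so it reflects the shared direction as well as the order of the rats. Ky and Mss51 were the closest pair of the 6 genes at 0.51, followed by Ankrd1 and Csrp3 at 0.58, Ankrd1 and Mustn1 at 0.64 and Mss51 and Nmrk2 at 0.67. Csrp3 and Mustn1 were 0.91 apart and Ky and Nmrk2 1.09 apart, while pairs of opposite direction were 2.21 to 3.13 apart.

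Among genes outside the 6, Mustn1 had the closest neighbours: Ampd3, an AMP deaminase, at 0.14 and Zfand2a at 0.17. Mss51 lay near the sialidase Neu2 at 0.22, the lipolysis inhibitor G0s2 at 0.27 and the peptide hormone Apln at 0.37. Ky lay near Nrep at 0.28 and near G0s2 and Neu2 at 0.34 and 0.48, so 2 of its 3 neighbours were also those of Mss51. For Ankrd1 they were the small nucleolar RNA host Gas5 at 0.40, the sterol regulator Insig1 at 0.51 and Slc35f5 at 0.52. For Nmrk2 they were cyclin D1 (Ccnd1) at 0.37, the desaturase Scd at 0.55 and Col18a1 at 0.60. Some of these neighbours had signals below the filter level, where part of a signal can be background. Apln read 49.1, 30.1 and 16.2 on the diabetic arrays, and Scd read 94.2 and 82.1 on diabetic replicates 1 and 3. On diabetic replicate 3 Ccnd1 read 45.3 and Col18a1 39.7. The likeness of Apln to Mss51 and of the other 3 genes to Nmrk2 is thus imprecise. Csrp3 had no neighbour below 0.71, the value for Fgfrl1, and came next to the RNA-binding protein gene Ythdf2 at 0.73 and Foxo1 at 0.76. Ythdf2 read 2235.4 on diabetic replicate 3 and 181.9 and 130.5 on the other diabetic arrays, so its likeness to Csrp3 rests on that array. Foxo1 was also highest on that array, at 577.8 against 232.1 and 203.9 on the other diabetic arrays. Fgfrl1 read 81.3 on normal replicate 2, below the filter level, so its likeness to Csrp3 is imprecise as well.

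**Figure D3:**
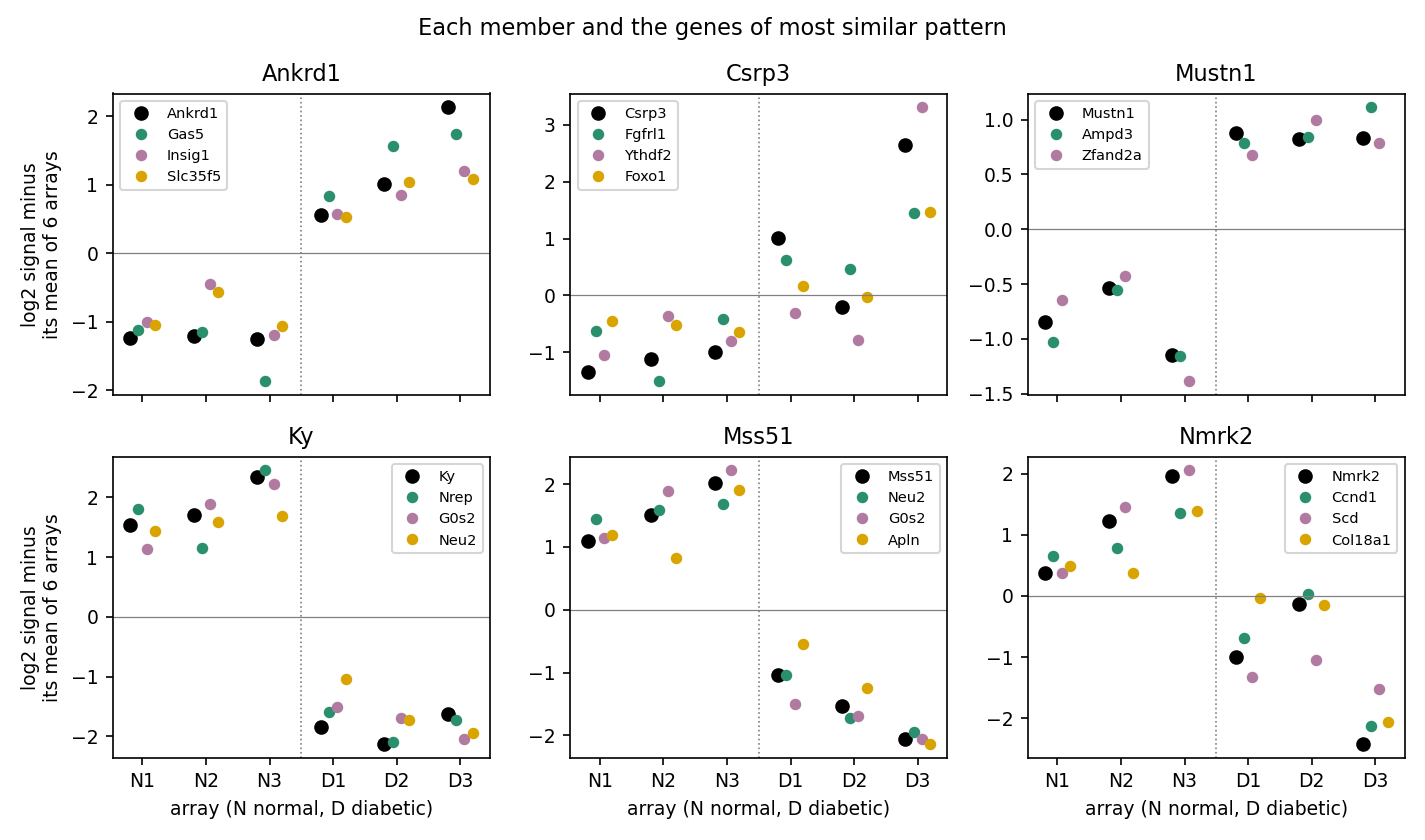
Log2 signal of each gene (black) and of its most similar genes (coloured, 3 for each gene but 2 for Mustn1) on the 3 normal arrays (N1 to N3) and 3 diabetic arrays (D1 to D3), each minus its own mean of the 6. Mustn1 is level over the diabetic arrays, while Csrp3 and its neighbours are highest on D3.

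Beside these 6 genes, 11 pathway lists, chosen with earlier results of these data known, held 179 genes. On the array 142 of them were named, and 127 were tested with limma over all probe sets. Of these, 12 rose and 7 fell in diabetic diaphragm at an adjusted p under 0.05, or 9.45% and 5.51%, beside 3.46% and 3.55% of all genes. The median log2 difference of the 127 genes was 0.04, and that of all genes 0.01. At an unadjusted p under 0.05 there were 25 higher and 21 lower genes. Trim63, Myc, Smad7, Fst and Fstl1 had been selected by the study on these same muscles, so the counts of their lists are not independent of that selection. Trim63, Xirp1 and Fstl1 passed whichever array was left out, and each of the others lost its call in at least 1 of the 6 cases. The higher genes numbered 7, 3 and 10 without normal replicates 1, 2 and 3 and 3, 6 and 3 without diabetic replicates 1, 2 and 3. The lower genes numbered 4, 4 and 1 and then 5, 5 and 2 in the same order.

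Of 12 genes of titin and its partners, 3 rose and none fell, but only Trim63 still passed when any array other than normal replicate 3 was left out. Trim63, a ubiquitin ligase of the M-line that marks sarcomere proteins for degradation, read 3230.6, 2652.4 and 1419.5 in normal and 8703.8, 6642.6 and 9291.8 in diabetic muscle, a 3.37-fold rise (adjusted p = 0.0048). Ankrd23, the relative of Ankrd1 that also binds titin, read 7383.1, 7018.9 and 8796.4 in normal and 10955.0, 11451.3 and 11317.7 in diabetic muscle. It rose 1.45-fold, with a log2 difference of 0.55 (SE 0.14, adjusted p = 0.041). The ratio for Ankrd23 was thus well below that of Ankrd1, and the diabetic rats were close together, but Ankrd23 passed in only 1 of the 6 cases with an array left out. Fhl2, a LIM protein bound to titin, rose 1.73-fold (adjusted p = 0.031), although its other probe set had a log2 difference of 0.28 (adjusted p = 0.41) and it too passed in only 1 of those cases. Titin itself, Ttn, had normal and diabetic means of 31465 ± 3582 and 32382 ± 8064 (SD, n = 3 each, adjusted p = 0.96).

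Among 19 genes of the Z-disc scaffold, Xirp1 rose and Pdlim7 fell. Xirp1, an actin-binding repeat protein of muscle under repair or load, rose 2.44-fold from 2154 ± 364 to 5252 ± 1114 (SD, n = 3 each, adjusted p = 0.0052). Pdlim7 fell 1.86-fold from 1931 ± 590 to 1038 ± 59.0 (SD, n = 3 each, adjusted p = 0.046), and its other probe set had a log2 difference of -0.41 (adjusted p = 0.35). Pdlim7 passed in 1 of the 6 cases with an array left out. The relatives of Csrp3 did not pass. Csrp1 read 516.0, 558.8 and 713.5 in normal and 384.5, 683.8 and 623.0 in diabetic muscle, so the groups overlapped (log2 difference -0.11, SE 0.23, adjusted p = 0.82). Csrp2 read 167.5, 162.9 and 64.1 against 214.3, 242.2 and 228.3, without overlap (log2 difference 0.92, SE 0.34, adjusted p = 0.14). The Z-disc genes Actn2 and Tcap, whose products bind muscle LIM protein, had log2 differences of 0.06 (adjusted p = 0.84) and 0.14 (adjusted p = 0.69), and Flnc, the filamin partner of Ky, one of 0.67 (adjusted p = 0.055).

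The calsarcin and calcineurin list, a Z-disc signalling complex, had 1 of 9 genes higher and 2 lower, with a median log2 difference of -0.42. At an unadjusted limma p under 0.05 there were 6 genes. Of these, Rcan1 was higher and Rcan2, Myoz1, Ppp3ca, Ppp3cb and Ppp3r1 were lower. Rcan1, a calcineurin inhibitor gene, rose 1.70-fold (adjusted p = 0.047), whereas its relative Rcan2 fell 1.67-fold (adjusted p = 0.023) and the calsarcin Myoz1 fell 1.64-fold from 15343 ± 2387 to 9382 ± 1298 (SD, n = 3 each, adjusted p = 0.031). The other probe set of Rcan2 had a log2 difference of -0.62 (adjusted p = 0.084). With an array left out, Rcan1 and Rcan2 each passed in 1 of the 6 cases and Myoz1 in 2. The calcineurin subunit genes Ppp3ca and Ppp3cb did not pass on their brightest probe sets, with log2 differences of -0.47 and -0.42 (adjusted p = 0.10 for each). Another probe set of each was lower, with log2 differences of -0.64 for Ppp3ca (adjusted p = 0.025) and -0.78 for Ppp3cb (adjusted p = 0.033). The subunit gene Ppp3r1 had a log2 difference of -0.65 (adjusted p = 0.052), and its other probe set one of -0.52 (adjusted p = 0.25). When the log2 signals of all probe sets for a gene were averaged, 4 genes of this list were lower in place of 2, and with an array left out 0 or 1 were. By its brightest probe set, none of 11 genes for the chaperone-assisted care of filamin passed limma's adjusted test, with a lowest adjusted p of 0.060 for Sqstm1 (log2 difference 0.56). Another, dimmer probe set of Sqstm1, an autophagy receptor gene, did pass, with a log2 difference of 1.12 (adjusted p = 0.030). At an unadjusted p under 0.05 there were 7 such genes. Bag3, Hspb8, Dnajb2, Hspb1, Hspb7 and Sqstm1 had log2 differences from 0.38 to 0.71, Hspb3 had one of -0.80, and the median log2 difference of the list was 0.38.

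In the integrin and costamere list, 1 of 18 genes rose and 1 fell. Itgb1bp2, which encodes melusin, a muscle protein bound to integrin β1, read 2329.2, 2311.2 and 2825.2 in normal and 1709.5, 1250.9 and 1243.3 in diabetic muscle, a 1.78-fold fall (adjusted p = 0.019) that passed in 3 of the 6 cases with an array left out. Tns1, an adhesion adaptor, rose 1.61-fold (adjusted p = 0.018), and its other probe set had a log2 difference of 0.11 (adjusted p = 0.86), and it passed in 3 of those cases. The integrin gene Itgb1 itself had a log2 difference of -0.07 (adjusted p = 0.84). Of 12 genes of NAD synthesis and use, the pathway of Nmrk2, none passed limma's adjusted test. Nmnat3 and Sirt5 were the 2 at an unadjusted p under 0.05, with log2 differences of -0.73 (adjusted p = 0.065) and -0.57 (adjusted p = 0.075). Nampt, the enzyme of the salvage route from nicotinamide, had normal and diabetic means of 1194 ± 211 and 1417 ± 440 (SD, n = 3 each, adjusted p = 0.61).

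YAP, TEAD and their targets held 14 tested genes, of which 2 rose: Ccn2, a matrix-associated growth factor, 1.70-fold (adjusted p = 0.042) and Amotl2, a YAP-binding junction protein, 1.59-fold (adjusted p = 0.032). Of 10 AP-1 and immediate early genes, 3 rose. Myc rose 2.49-fold from 273 ± 61.2 to 679 ± 212 (SD, n = 3 each, adjusted p = 0.018), Egr1 1.94-fold (adjusted p = 0.049) and Junb 1.93-fold (adjusted p = 0.039). Junb was dim in normal muscle, where it read 126.5, 106.3 and 147.0. The rises of Ccn2 and Amotl2 each passed in only 1 of the 6 cases with an array left out, and those of Myc, Egr1 and Junb in 2.

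Myostatin and transforming growth factor beta signalling, to which Mss51 responds, had 1 of 11 genes higher and 3 lower. The follistatin-like gene Fstl1 read 1413.1, 1490.5 and 1410.5 in normal and 642.3, 650.5 and 560.4 in diabetic muscle, a 2.33-fold fall (adjusted p = 0.0018). Its other probe sets had log2 differences of -0.77 (adjusted p = 0.052) and -0.13 (adjusted p = 0.84). Fst, which encodes the myostatin-binding protein follistatin, fell 2.29-fold (adjusted p = 0.026), and its other probe set fell as well (log2 difference -1.35, adjusted p = 0.012). With an array left out, Fst passed in 1 of the 6 cases and Smad3 in 4. The signal transducer Smad3 fell 2.78-fold from 712 ± 206 to 256 ± 102 (SD, n = 3 each, adjusted p = 0.021), while its other probe set lay below the filter with means of 22.2 and 32.2. The inhibitory Smad7 rose 2.78-fold (adjusted p = 0.012), with a normal mean of 57.8 ± 4.43 (SD, n = 3) under the filter level, and it dropped below the filter without each diabetic array in turn. The other probe sets of Smad7 lay below the filter as well, with normal and diabetic means of 34.7 and 41.3 for one and 53.0 and 64.8 for the other. Mstn, the myostatin gene, lay below the filter and was not tested. Of 7 denervation markers and 4 myogenic factors, none passed limma's adjusted test, with 1 gene, Gadd45a (log2 difference 0.46), and 2 genes, Myod1 (-1.37) and Mef2c (-0.56), at an unadjusted p under 0.05.

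**Figure D4:**
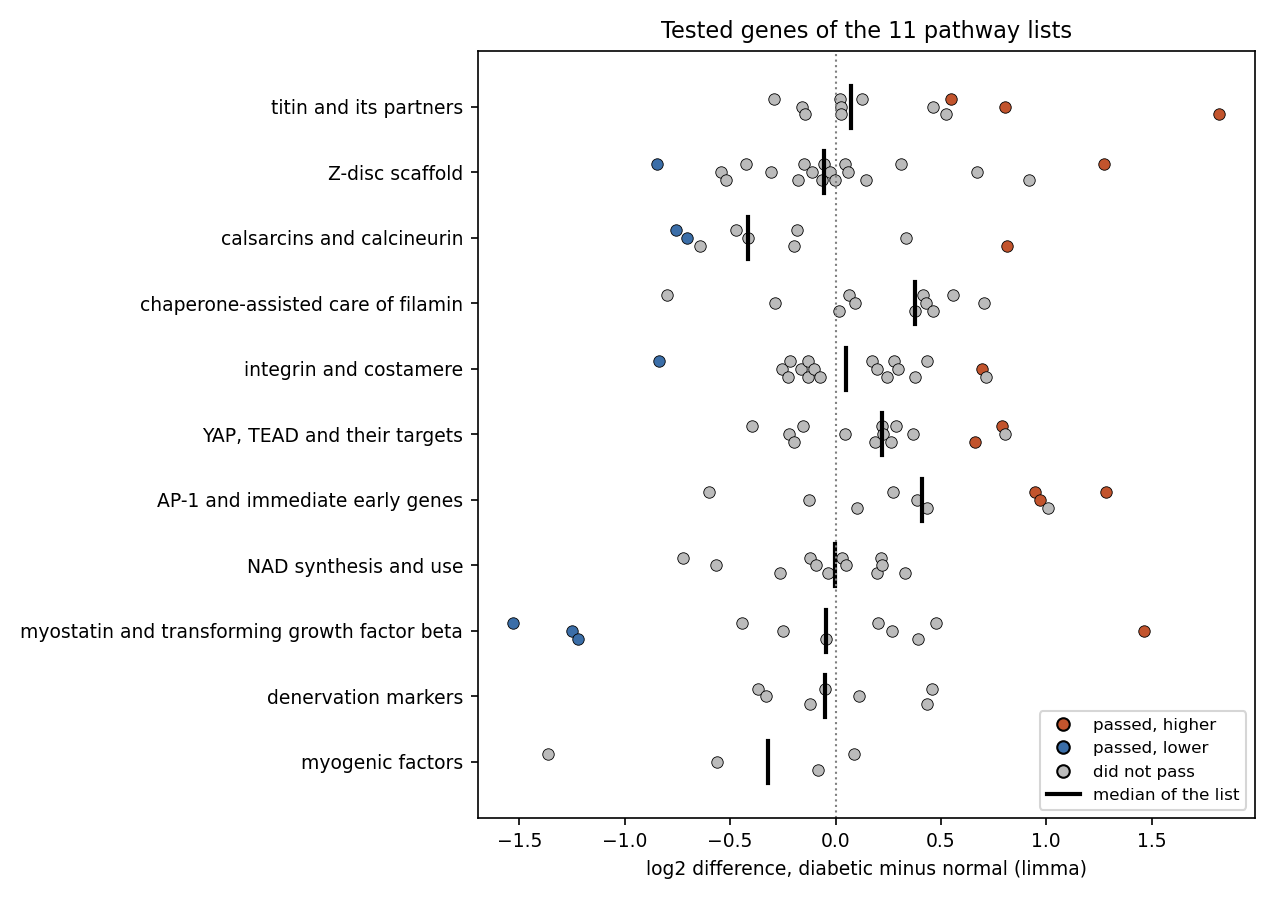
Log2 difference, diabetic minus normal (limma), of each tested gene of the 11 pathway lists, with the black line at the median of the list. Genes that passed an adjusted p under 0.05 are orange (12 higher) or blue (7 lower), the 6 chosen genes are not plotted, and most genes lie between -0.5 and 0.5.

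Markers of fibre and cell types moved with the groups in some lists. Of 11 fast-fibre genes, 3 fell: the fast myosin Myh4 3.44-fold (adjusted p = 0.0017), parvalbumin Pvalb 3.13-fold (adjusted p = 0.0061) and Mybpc2 1.66-fold (adjusted p = 0.015). Myh4 and Pvalb passed whichever array was left out, and Mybpc2 passed in 4 of the 6 cases. Their summed signal was 204107 to 233279 on the normal and 151394 to 188725 on the diabetic arrays. None of 9 slow-fibre genes passed limma's adjusted test or an unadjusted p under 0.05, and their sums, 159893 to 191405 and 152650 to 205373, overlapped. Of 11 general fibre genes, Casq1 and Mb fell, 1.64-fold and 1.47-fold, and each lost its call in at least 3 of the 6 cases with an array left out, with sums of 192014 to 226946 and 159637 to 215278.

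Among other cells, 4 of 6 fibroblast genes fell: Col3a1 3.69-fold, Col1a1 3.51-fold, Col1a2 2.91-fold and Lum 2.72-fold, and the sums of that list were 43162 to 47339 in normal and 21918 to 23046 in diabetic muscle. All 4 passed whichever array was left out. Pvalb and the 3 collagen genes had likewise been selected by the study on these muscles. Of 5 endothelial genes, Kdr rose 1.58-fold and Tie1 fell 1.67-fold (sums 2835 to 2895 and 3143 to 3513), and of 4 smooth muscle genes, Acta2 fell 1.52-fold and Smtn 2.25-fold (sums 2549 to 3375 and 1836 to 2431). The endothelial and smooth muscle changes were lost in at least 5 of the 6 cases with an array left out. Macrophage (5 tested genes), adipocyte (2), Schwann cell (2), mesothelium (4), heart (3) and liver (1) markers held no gene that passed limma's adjusted test, and S100b of Schwann cells (log2 difference -0.83) and Fgg of liver (0.85) were at an unadjusted p under 0.05. The part of these markers in the differences of the 6 genes was not tested.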

How the data were processed

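The deposited values are MAS 5.0 signals, an intensity per probe set on a linear scale, made by the authors from 1 Affymetrix RAE 230A array per rat. The MAS 5.0 settings: not given in the sources used here. Present calls and the study's BAM statistics were not used here.

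Of 15923 probe sets, 12783 had 1 gene in the platform annotation, 312 had several and 2771 none, and a gene was named only from a probe set with 1 gene. Of several probe sets for a gene, the brightest by mean signal stood for it. No normalization between arrays was added, and log2 was taken after 136 signals under 1 had been raised to 1. Probe sets with a mean signal up to 105.8, the 40th percentile, did not enter the test, nor did 57 control probe sets. The remaining 9519 probe sets were fitted in limma 3.58.1 (lmFit, eBayes with trend, R 4.3.3) with Benjamini-Hochberg adjustment, which called 314 higher and 331 lower. The 6 arrays, each from a separate animal, leave 4 residual degrees of freedom, and their number limits the precision. Ratios are those of group mean signals.

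The 6 genes, the gene lists and the tests were chosen with earlier results of these data known. Genes named are the 6, their relatives Ankrd23, Csrp1 and Csrp2 (Ankrd2 and Nmrk1 had no probe set named here), up to 4 genes per pathway list that passed, any marker that passed and the 3 genes nearest in pattern to each of the 6, of which 1 is not reported here. Ttn, Actn2, Tcap, Flnc, Ppp3ca, Ppp3cb, Ppp3r1, Itgb1, Nampt and Mstn are not covered by this rule and were added with their values in view. So were the genes at an unadjusted p under 0.05 of lists without a call and markers named as below the filter. Alternatives were quantile or median scaling, an offset of 16 or 64, no filter or one at the 60th percentile, no variance trend, array weights, a replicate block, removal of each array, the mean over probe sets and, for the 6 genes, mean log2 differences. The fit was tested on simulated data. Promoter windows are those of RefSeq (GRCr8).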

Additional observations from a re-analysis of the deposited data

How the results depend on the processing

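Across 13 alternatives for each of the 6 genes, no ratio changed direction, and 4 of 78 moved by more than the spread between replicates. Because the groups did not overlap, removal of an array could not reverse a direction. For the 4 genes with 1 probe set, the mean over probe sets was the same value by construction. An offset of 64 before log2 gave 2.03 for Ankrd1 and -3.17 for Ky, whose signals are low in one group. With each array left out the log2 ratio ranged from 2.03 to 2.91 for Ankrd1 and from 1.68 to 3.20 for Csrp3, in both cases lowest without diabetic replicate 3. Over all probe sets, 314 were higher and 331 lower. Without the filter on dim probe sets 200 were higher, and with each array left out the counts were 135 to 226 and 177 to 236. Of the pathway genes, 6 were higher without the filter and 7 without the variance trend, and with each array left out 3 to 10 were higher and 1 to 5 lower. The difference for Csrp1 ranged from -0.27 to 0.14 with each array left out and changed sign without normal replicate 3 (0.03) and without diabetic replicate 1 (0.14). The cause of these changes was not tested. The labels give each group replicates 1 to 3 and state no pairing. Deviations of same-numbered arrays from their group means correlated at 0.10, -0.20 and -0.07, and those of other pairs at -0.12 to 0.20. With 3 arrays per group these values cannot decide whether the numbers pair the rats. With the replicate number as a block, 162 probe sets were higher and 170 lower, and 6 pathway genes were higher and 2 lower. Mean log2 differences between same-numbered arrays were 2.46 for Ankrd1, 2.31 for Csrp3, 1.69 for Mustn1, -3.73 for Ky, -3.08 for Mss51 and -2.38 for Nmrk2. With 3 arrays in each group these equal the unpaired differences of mean log2 signals by arithmetic, so they are no separate check. Signals near background limit the ratios of Ankrd1 and Ky, and also that of Nmrk2, which read 96.4 on diabetic replicate 3.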
